A study of Rattus norvegicus with 36 samples.

Results

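The 6 genes described here encode the MHC class II pathway of the rat, RT1-Da, RT1-Db1, RT1-Ba, RT1-Bb, Cd74 and Ciita. They were chosen by name. Every probe of the array that is not a control and whose transcript accession belongs to one of these symbols was taken, which gave 8 probes for all 6 genes, among 30367 probes and 15154 gene symbols with a probe. RT1-Db1 and RT1-Bb each had 2 probes. The array does not tell alleles apart, and the 4 RT1 genes belong to a family with similar members, so signal from a related transcript cannot be separated from their own.

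RNA from the thyroid of 36 adult male Sprague Dawley rats was measured, with 1 Agilent array of 1 colour per rat. The rats were injected intravenously with 131I in saline, a beta-emitting isotope of iodine that the thyroid takes up, or were mock-treated as controls (0 kBq), and all were killed after 24 h. The injected activity was 9, 88, 170 and 260 kBq in the lower groups and 340, 760, 1300 and 4700 kBq in the upper groups. Each of the 9 groups held 4 rats, kept on standard chow. Injected activity and injection order cannot be told apart among the exposed groups, which were injected in order of activity, with the controls last. No genetic modification or other treatment was given in any group, and Sprague Dawley is an outbred stock.

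MHC class II molecules are pairs of an alpha and a beta chain that display peptides from taken-up proteins to CD4 T cells. In the rat, RT1-D is the counterpart of human HLA-DR and RT1-B that of HLA-DQ. The invariant chain, encoded by Cd74, holds the chains together and keeps the peptide groove closed until the molecule reaches the endosome, and the co-activator encoded by Ciita switches the genes on together with factors bound to an X box and a Y box in their promoters. Dendritic cells, macrophages and B cells carry these molecules constantly, while thyroid follicular cells are known to show them after exposure to interferon gamma.

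Since RT1-Da, RT1-Db1 and RT1-Bb each varied with Cd74 over the rats, as described further on, the promoters of these 4 genes are shown, and that of RT1-Ba, the remaining chain, for comparison, with the letters searched for in capitals. RefSeq promoter sequences (build GRCr8, 250 bases before to 50 after the annotated start of each gene) were found for 5 of the 6 members, and Ciita had none in the table used. The first 4 windows are the 150 bases before the start of the gene, and that of Cd74 covers the bases from 250 to 151 before its start, where its matches lie. Capitals mark CCTNGNNAC, a spelling of the X box, and ATTGG, the Y box, which is read as CCAAT on the opposite strand.
RT1-Da, chr20:4515265-4515414, plus strand: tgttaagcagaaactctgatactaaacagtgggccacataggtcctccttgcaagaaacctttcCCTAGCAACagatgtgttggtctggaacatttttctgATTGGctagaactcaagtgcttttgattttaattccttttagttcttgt
RT1-Db1, chr20:4560163-4560312, minus strand: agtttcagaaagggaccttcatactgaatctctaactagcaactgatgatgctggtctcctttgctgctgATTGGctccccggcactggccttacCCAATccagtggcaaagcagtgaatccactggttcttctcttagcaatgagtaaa
RT1-Ba, chr20:4576907-4577056, plus strand: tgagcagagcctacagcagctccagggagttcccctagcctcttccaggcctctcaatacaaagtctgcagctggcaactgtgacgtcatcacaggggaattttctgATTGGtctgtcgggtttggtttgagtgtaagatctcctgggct
RT1-Bb, chr20:4604119-4604268, minus strand: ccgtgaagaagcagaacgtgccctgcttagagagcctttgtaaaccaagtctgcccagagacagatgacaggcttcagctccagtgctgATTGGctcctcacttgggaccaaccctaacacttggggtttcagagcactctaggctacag
Cd74, chr18:56526956-56527055, plus strand: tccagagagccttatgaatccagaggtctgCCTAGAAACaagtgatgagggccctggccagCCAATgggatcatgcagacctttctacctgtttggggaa

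ATTGG on the strand of the gene stood between 80 and 39 bases before the start in all 4 chain genes, at bases 49 to 45 in RT1-Da, 80 to 76 in RT1-Db1, 43 to 39 in RT1-Ba and 61 to 57 in RT1-Bb. Over the 33469 promoters of the table, 37.5% held ATTGG on either strand. The longer word CTGATTGG, chosen after the sequences had been read, was in all 4 chain genes and in 3.5% of all promoters. The stricter letters CCTNGNNAC, held by 16.1% of all promoters, stood upstream of the start in RT1-Da, at bases 86 to 78, and in Cd74, at bases 220 to 212. In RT1-Bb these letters lay 37 to 45 bases after the start. RT1-Da held both motifs in order on the strand of the gene with 10 to 40 bases between them, as did 0.523% of all promoters. Of the related class II genes, RT1-DOb also held both in that order. A match describes letters only, and the absence of the X box letters says only that these letters are not in the window.

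Levels are given as the log2 signal of a probe relative to the 75th percentile of its array, and a difference between groups as a log2 ratio, exposed minus control. A level does not compare genes, because probes differ in brightness. A probe is called well above background by the scanner's software. Across the arrays between 62.6% and 90.7% of all probes were well above background, the highest share being that of rat 4 of the 340 kBq group and the next highest 79.0%.

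RT1-Da, the alpha chain of RT1-D, was well above background on all 36 arrays. Its level in control rats 1 to 4 was 0.94, 2.50, 1.03 and 0.38. In the 9 kBq group it was 0.78, 2.46, 0.43 and 0.56, and in the 88 kBq group 2.03, 1.04, 0.56 and 0.90. A single rat of each of these 3 groups stood above the other 3. Levels of 0.65, 0.70, -0.19 and 0.38 were measured after 170 kBq and of 1.01, 1.74, -0.03 and -0.12 after 260 kBq. After 340 kBq they were 0.57, 0.74, 0.09 and 0.91, and after 760 kBq 1.04, 0.73, 1.30 and 0.32. The exposed rats of these groups overlapped with the controls. After 1300 kBq the 4 rats were at 0.13, 0.77, 1.36 and 1.498, and after 4700 kBq at 0.25, -0.80, 0.34 and 0.67. Of the 4700 kBq rats, 3 lay below all controls and the fourth was within their range.

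RT1-Db1, the beta chain that pairs with RT1-Da, was well above background on all 36 arrays with each of its 2 probes. The probe A_64_P134927, with the higher mean, gave levels of 2.17, 3.003, 1.99 and 0.34 in control rats 1 to 4. In the 9 kBq group it gave 1.36, 3.23, 0.88 and 0.85, and in the 4700 kBq group 0.72, 0.32, 0.93 and 1.36. Again rat 2 of the 9 kBq group and control rat 2 were the highest of all 36, followed by rat 1 of the 88 kBq group at 2.60. Over all 36 rats the level ran from -0.60 in rat 3 of the 340 kBq group to 3.23. The other probe of the gene, A_64_P130578, ran from 0.13 in rat 2 of the 4700 kBq group to 3.15 and gave 1.87, 2.88, 1.52 and 1.24 in the controls. The difference of the 2 probes within a rat, A_64_P130578 minus A_64_P134927, was between -0.71 and 0.94 in 35 rats and 1.49 in rat 4 of the 170 kBq group.

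RT1-Bb, the beta chain of RT1-B, was measured by 2 probes to the same transcript that disagreed in some rats. The probe A_64_P043911 was well above background on all 36 arrays, at 0.15, 2.79, -0.10 and 0.46 in control rats 1 to 4. Over all rats it ran from -1.97 in rat 2 of the 4700 kBq group to 3.09 in rat 2 of the 9 kBq group. The other probe, A_44_P552452, was not well above background in 3 rats, at -8.14 in rat 4 of the 170 kBq group, -6.63 in rat 3 of the 340 kBq group and -7.81 in rat 4 of the 1300 kBq group. In the same 3 rats A_64_P043911 gave 1.38, 0.69 and 2.52, so the gene was measured there by that probe alone.

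Within a rat, the difference A_44_P552452 minus A_64_P043911 has only a bound in the 3 rats just named, where A_44_P552452 was not well above background and the lower of the 2. In the other 33 rats it fell into 2 ranges that did not meet. It was between -0.74 and 0.17 in 24 rats with a median of -0.43, and between 1.45 and 2.09 in 9 rats with a median of 1.69. The 9 rats were control rats 1 and 3, rat 2 of 170 kBq, rat 1 of 260 kBq, rat 4 of 340 kBq, rats 1 and 4 of 760 kBq, rat 2 of 1300 kBq and rat 2 of 4700 kBq. The 170, 340 and 1300 kBq groups each held rats of both ranges and 1 of the 3 rats, and the 9 and 88 kBq groups held the first range only. Rats 4 of 170 kBq and 3 of 340 kBq were also those in which the RT1-Db1 difference was largest. The source of the disagreement was not tested.

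**Figure D1:**
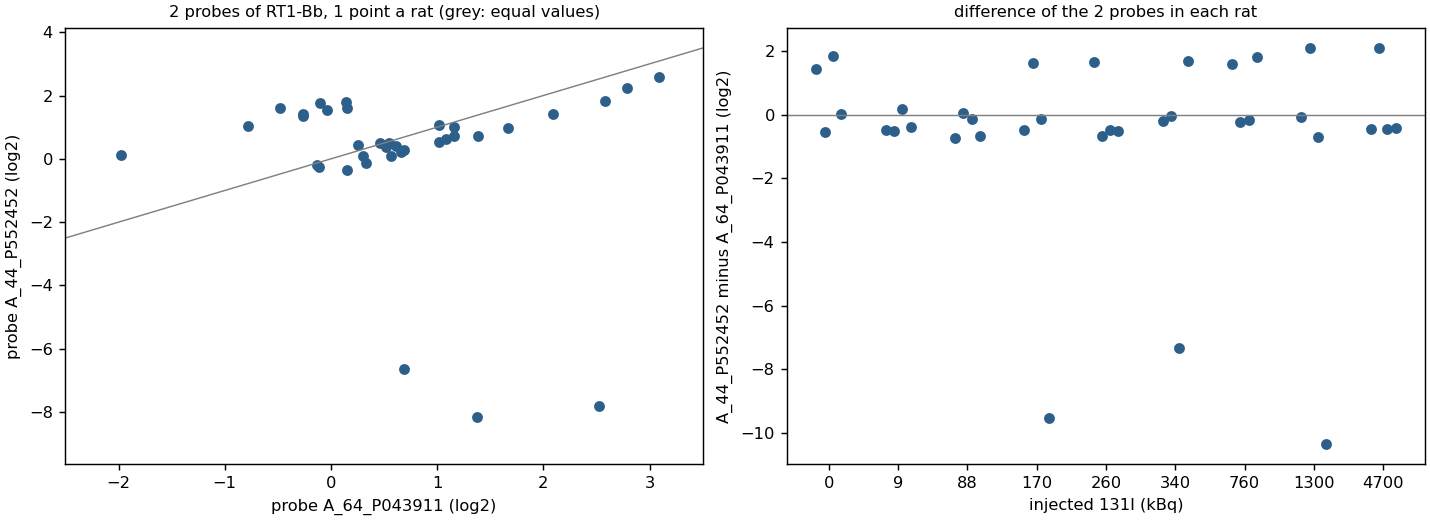
Left, log2 level of the 2 RT1-Bb probes in each of the 36 rats, with a grey line where they are equal. Right, difference of the probes by injected activity; 9 rats lie between 1.45 and 2.09, and in the 3 lowest rats A_44_P552452 was not well above background, so that their points are bounds.

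RT1-Ba, the alpha chain of RT1-B, was at or below background nearly throughout. Its probe was well above background on 1 of 36 arrays, rat 4 of the 340 kBq group, at -4.15, which is the array with the highest share of all probes above background. On the other 35 arrays the level was between -8.73 and -6.64, and in the controls it was -7.68, -8.57, -7.19 and -7.20. No fold change is given for it, because the controls were all not well above background.

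Cd74, the invariant chain, was well above background on all 36 arrays. Its level in control rats 1 to 4 was 2.95, 4.14, 2.97 and 2.75. After 9 kBq it was 3.14, 4.39, 2.52 and 2.74, and after 88 kBq 4.01, 3.03, 2.19 and 3.24. Rat 2 of 9 kBq, control rat 2 and rat 1 of 88 kBq were the highest of all rats. The same held for RT1-Da, for RT1-Bb and for RT1-Db1 by A_64_P134927, but not for RT1-Ba. By A_64_P130578, the other RT1-Db1 probe, rat 2 of 260 kBq, at 2.47, stood above rat 1 of 88 kBq, at 2.39. After 170 kBq it was 2.70, 2.78, 1.81 and 2.72, and after 260 kBq 2.87, 3.57, 2.10 and 1.91. The 340 kBq rats were at 2.39, 2.75, 2.23 and 2.71, all of them below the lowest control, though rat 2 at 2.7521 was only 0.0011 below control rat 4 at 2.7532, and this was the only comparison of any member probe in which the groups did not overlap. Among all probes 0.393% had all 4 rats of the 340 kBq group below all controls and 3.27% had them above. In the order 9, 88, 170, 260, 760, 1300 and 4700 kBq, all 4 rats lay below the controls for 0.27%, 0.323%, 0.244%, 0.296%, 0.366%, 0.214% and 0.55% of all probes, and above them for 1.32%, 1.22%, 1.01%, 0.708%, 1.08%, 1.11% and 0.774%. After 760 kBq Cd74 was at 2.91, 2.85, 3.18 and 2.18, after 1300 kBq at 2.01, 2.59, 3.24 and 3.20 and after 4700 kBq at 2.36, 1.36, 2.44 and 2.82. The lowest rat of all was rat 2 of the 4700 kBq group, which was also the lowest for RT1-Da and for the RT1-Bb probe A_64_P043911. By A_44_P552452, the other RT1-Bb probe, that rat was at 0.12 and was not the lowest. The same rat had the lowest mean of 9 macrophage and monocyte genes of all 36, at -1.55, the next lowest being -0.853.

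Ciita, the master co-activator, was measured near background and was well above it on 26 of 36 arrays, 3 of them controls. Its level in control rats 1 to 4 was -6.15, -4.47, -6.34 and -6.12. The highest rat was again rat 2 of 9 kBq, at -3.63, followed by control rat 2 and by rat 1 of 88 kBq at -4.61. The lowest was rat 3 of 260 kBq at -6.59.

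**Figure D2:**
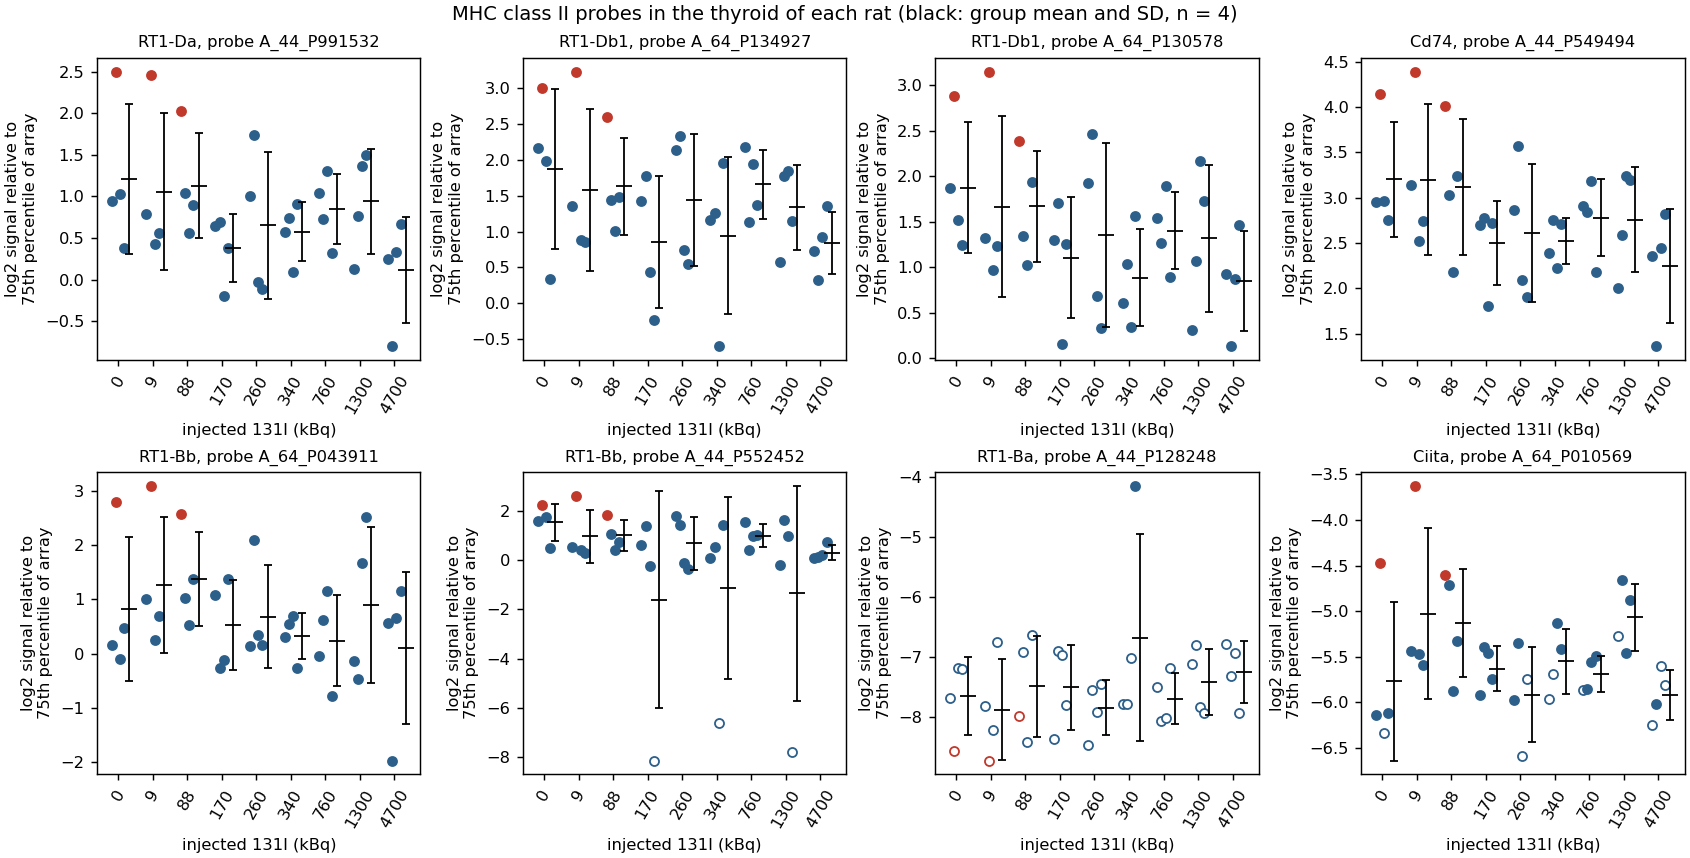
Log2 level of the 8 class II probes in each rat, 1 panel per probe and 1 column per injected activity, with group mean and SD in black (n = 4). Open points were not well above background; red points are rat 2 of 9 kBq, rat 1 of 88 kBq and control rat 2, which are the 3 highest for RT1-Da, Cd74 and Ciita.

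The 3 rats with the highest class II levels also differed from the other 33 in genes of T cells and of the thymus. Rag1, which cuts the antigen receptor genes in immature lymphocytes, was between 3.44 and 4.19 in these 3 rats and between -8.69 and -5.71 in the other 33. All 8 genes of a T cell list (Cd3e, Cd3d, Cd3g, Cd2, Cd5, Cd4, Cd8a and Lck) were higher in each of the 3 than in any other rat, and its mean level was 2.59, 2.38 and 1.69 in rat 2 of 9 kBq, rat 1 of 88 kBq and control rat 2, against -5.93 to -4.32 elsewhere. The brightest probe of the list was Cd3d. Of the 6 thymus genes with a probe, 4 did the same, and the thymus chemokine Ccl25 was between 0.70 and 1.46 against -8.73 to -5.22. The other 2 did not. Foxn1, the transcription factor of thymic epithelium and the brightest probe of this list, was at -4.69, -5.05 and -5.93, within the range of -6.95 to -3.87 of the other 33, and Aire, well above background on 2 of 36 arrays, was between -7.54 and -5.74 against -8.75 to -3.98. All 5 class II main probes other than RT1-Ba were above those of the other 33 rats in all 3, with mean levels of 1.91, 1.32 and 1.59 against at most 0.88.

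Among the other cell types that carry class II molecules, the mean of the dendritic cell list was also higher in these rats, at -3.24, -3.83 and -3.73 against at most -4.13 in the other 33, and the macrophage mean was not. The B cell mean was -3.27, -4.20 and -3.86 against at most -4.33, but 5 of its 6 genes were well above background on at most 17 of 36 arrays, and Pax5, the gene well above background on all 36 arrays, was at -2.41, -1.51 and -2.41, within the range of -2.56 to -0.05 over all rats. For dendritic cells 2 of 6 genes were higher in all 3 rats than elsewhere, Clec9a being between -3.31 and -2.54 against -7.99 to -4.67. For B cells it was 1 of 6 genes, and for macrophages and monocytes 0 of 9. For class I presentation it was 4 of 7, among them Tap2, a peptide transporter, at 3.62 to 4.13 against -1.79 to 1.68, and Psmb8, an immunoproteasome subunit, at 2.55 to 3.41 against -1.55 to 1.01. The part of such cells in the class II levels was not tested. In whole tissue, fewer cells of a type and less RNA per cell cannot be told apart. Results that rest on these rats are therefore given with and without these 3 arrays, a choice made after the values had been seen.

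The tissue label was checked on follicular cell genes. The mean level of 8 such genes, among them Tg, Slc5a5, Pax8 and Nkx2-1, ran from -5.14 to 4.63 over the 36 arrays, and Tg, which encodes thyroglobulin, ran from -3.91 to 8.05 among the 33 rats. On 15 arrays Tg lay below a gap of at least 2 log2 units, so this marker of the labelled tissue was low there. These arrays were 3 of 4 in the 9 and 340 kBq groups, 2 of 4 in the 170 and 1300 kBq groups and 1 of 4 in each of the other 5 groups, controls included. This count is by Tg alone. Rat 1 of 88 kBq and rat 3 of 260 kBq had Tg at 6.75 and 6.72, but follicular list means of -0.99 and -0.94. Genes of neighbouring tissues varied widely too, with list means from -5.25 to 6.55 for squamous epithelium, from -7.32 to 4.26 for C cells and from -3.41 to 7.81 for muscle.

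**Figure D3:**
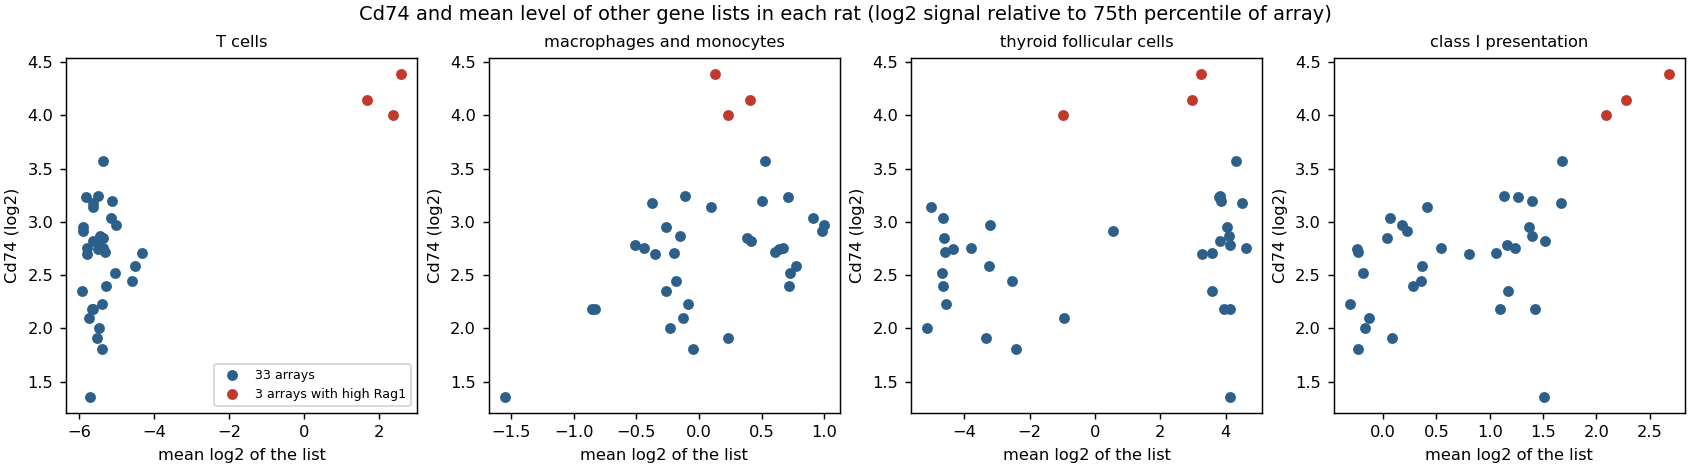
Cd74 level of each rat (vertical, log2) against the mean log2 level of 4 gene lists (horizontal), with the 3 rats with high Rag1 in red. The 3 rats lie at 1.69 to 2.59 for T cell genes and all others at -4.32 or below, while their macrophage means of 0.12 to 0.41 lie within the range of the others.

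Each exposed group was then compared with the 4 controls, to ask whether class II transcripts responded to 131I. With limma, calling a probe at an adjusted p under 0.01 together with a change of 1.5-fold or more, 0 of the 8 member probes were called in each of the 8 comparisons, as were 0% of all probes. At an unadjusted p under 0.05, 0 of the 8 were found after 9, 88, 170, 260, 340, 760 and 1300 kBq, where 2.99%, 2.75%, 2.3%, 1.02%, 12.3%, 1.45% and 4.08% of all probes were. After 4700 kBq there were 2, both lower than in the controls, against 1.66% of all probes and 0.375% in the lower direction. These were RT1-Da, with a log2 ratio of -1.10 (SE 0.47, limma adjusted p = 1), and Cd74, with -0.96 (SE 0.43, limma adjusted p = 1). In means over 4 rats, RT1-Da was at 0.11 ± 0.64 (SD, n = 4) against 1.21 ± 0.90 (SD, n = 4) and Cd74 at 2.25 ± 0.62 (SD, n = 4) against 3.20 ± 0.63 (SD, n = 4).

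Both ratios were nearer to 0 when control rat 2 was not used. Without the 3 arrays with high Rag1, 1 of which is that control, the ratio after 4700 kBq was -0.67 for RT1-Da (unadjusted p = 0.105, limma adjusted p = 1) and -0.65 for Cd74 (unadjusted p = 0.108, limma adjusted p = 1). The mean of the macrophage and monocyte list was -0.397 ± 0.828 (SD, n = 4) after 4700 kBq and 0.176 ± 0.657 (SD, n = 4) in the controls, and its part in the ratios was not tested. With the slide as a block the ratios were -0.90 and -0.77. Within scan day 1, which held 2 exposed and 3 control rats of this comparison, they were -0.80 and -0.65. Within scan day 2, with 2 exposed rats and 1 control, they were -1.22 and -1.09.

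For Cd74 after 340 kBq the ratio was -0.68 (SE 0.43), and all 4 exposed rats were lower than every control (p = 0.0286 by an exact permutation of the rats, two-sided, which is the least that 4 rats against 4 can give). This was the smallest of the 48 exact p-values over the 6 main probes and 8 comparisons, and the limma adjusted p was 0.54. It was -0.37 without the 3 arrays and -0.31 with the slide as a block. Of the rats compared, 3 of 4 exposed rats and 1 of 4 controls had low Tg, and the part of this in the ratio was not tested. Within scan day 1 it was -0.54 (1 exposed rat, 3 controls) and within scan day 2 -0.51 (3 exposed rats, 1 control).

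Of the 56 comparisons of a member probe other than RT1-Ba with the controls, 2 had an unadjusted p under 0.05, those of RT1-Da and Cd74 after 4700 kBq. Without the 3 arrays with high Rag1 these 2 were not under that limit. Ciita then was, higher after 9, 88, 170, 340 and 1300 kBq, but that choice itself lowers its controls, as described below. The signs of the mean ratios are given as counts only, leaving out RT1-Ba, whose probe was at background. The number of the 7 remaining probes with a ratio below 0 was 5 after 9 kBq, 5 after 88, 6 after 170, 7 after 260, 6 after 340, 6 after 760, 5 after 1300 and 7 after 4700 kBq. Over all probes the corresponding shares were 46%, 46.7%, 37%, 49.3%, 33.2%, 45.1%, 33.1% and 38.2%. With the 3 arrays with high Rag1 left out, the counts were 5, 4, 5, 5, 5, 3, 4 and 6 of 7, where 46.1%, 47.5%, 42.1%, 54.1%, 33.6%, 47.1%, 34.4% and 41.2% of all probes were below 0. The median ratio of the 7 probes, in the order of the activities, was -0.15, -0.086, -0.77, -0.52, -0.68, -0.42, -0.45 and -1.03, and without the 3 arrays -0.19, -0.070, -0.40, -0.13, -0.37, 0.066, -0.13 and -0.67. The median over all probes was 0.04, 0.03, 0.10, 0.0037, 0.25, 0.04, 0.21 and 0.09. The 8 comparisons share their 4 controls, and the members vary together over rats, so these counts are not independent of each other. Under quantile normalization the median of all probes after 340 kBq was -0.02.

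RT1-Db1, by A_64_P134927, was lower by 1.04 (SE 0.59) after 4700 kBq on the log2 scale and by 1.02 (SE 0.59) after 170 kBq, with limma adjusted p-values of 1 and 0.997. Leaving out control rat 2, or the 3 arrays, gave ratios of -0.66 and -0.65. By A_64_P130578 the means were 0.85 after 4700 kBq and 1.11 after 170 kBq, against 1.88 in the controls. Its ratios without the 3 arrays were -0.69 and -0.44. In rat 4 of 170 kBq A_64_P134927 gave -0.23 and A_64_P130578 gave 1.26. RT1-Bb, by A_64_P043911, ranged from -0.73 after 4700 kBq to 0.55 after 88 kBq (SE 0.74 in each comparison). These were -0.070 and 0.80 without the 3 arrays, and with single rats left out they ran from -1.08 to -0.033 and from 0.15 to 1.20. The direction turned with the probe in 3 of 8 comparisons, after 9, 88 and 1300 kBq, and in 7 of 8 without the 3 arrays. A_44_P552452 was below the controls in all 8 comparisons either way, and A_64_P043911 in 5, and in 1 without the 3 arrays. After 9 and 88 kBq, where A_44_P552452 was well above background in all rats of both groups and in the controls, it gave -0.57 and -0.52 (SE 1.69), against 0.43 and 0.55 by A_64_P043911. That SE pools the spread of all 9 groups, including the 3 rats in which this probe was not well above background. Within the groups compared, the SD of A_44_P552452 was 1.09 after 9 kBq, 0.62 after 88 kBq and 0.74 in the controls (n = 4). After 170, 340 and 1300 kBq its mean includes 1 rat in which it was not well above background. Ciita, the regulator, ranged from -0.15 after 4700 kBq to 0.74 after 9 kBq (SE 0.39 in each comparison). In rats 1, 3 and 4 of 4700 kBq and in control rat 3 Ciita was not well above background. The ratio of -0.15 therefore rests mostly on exposed rats at background. None of the ratios of these 3 genes passed the test.

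The Ciita ratios depended on control rat 2. The 3 arrays with high Rag1 are the 3 highest of all rats for Ciita, and leaving them out takes away control rat 2, at -4.47, so that the shared control group is lower and narrower by that choice. The 3 remaining controls, at -6.34 to -6.12, lie near the background, 1 of them not well above it. The ratios without the 3 arrays, from 0.28 after 4700 kBq to 1.14 after 1300 kBq, are therefore given as values and not as a response. Their unadjusted limma p-values after 9, 88, 170, 340 and 1300 kBq were 0.0247, 0.00541, 0.0484, 0.0263 and 0.000345. After 260, 760 and 4700 kBq they were above 0.05. The limma adjusted p-values were between 0.64 and 1. With all 36 arrays, Ciita after 170 and 340 kBq had ratios of 0.14 and 0.22, which quantile normalization turned to -0.09 and -0.41.

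**Figure D4:**
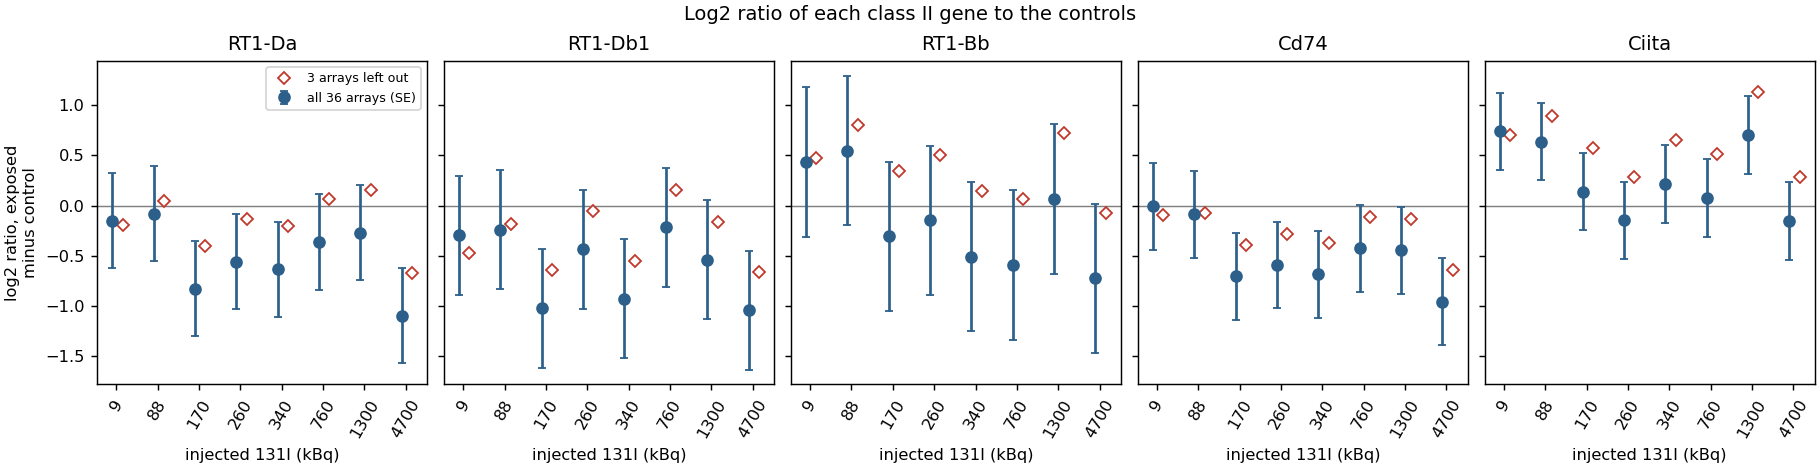
Log2 ratio of 5 class II genes to the controls by injected activity, with all 36 arrays (blue, bars are SE) and with the 3 arrays with high Rag1 left out (red diamonds). For Cd74 after 4700 kBq the ratio was -0.96 with and -0.65 without these arrays, and for Ciita after 1300 kBq it was 0.70 and 1.14.

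No member probe passed a test over all 9 groups. In the moderated F test over the 9 groups 0 of 8 passed at an adjusted p under 0.01, against 0.0132% of all probes, and the adjusted p was 0.992 for each of them. A slope on the rank of the injected activity was fitted to the 32 exposed rats. Of the members 0 of 8 passed, against 0.0296% of all probes. Cd74 changed by -0.092 log2 units per rank (SE 0.045, limma adjusted p = 0.466) and RT1-Bb, by A_64_P043911, by -0.14 (SE 0.075, limma adjusted p = 0.52). With the 3 arrays with high Rag1 left out these slopes were -0.039 (SE 0.041, limma adjusted p = 0.807) and -0.063 (SE 0.071, limma adjusted p = 0.823).

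Within the groups, RT1-Da, RT1-Db1 and RT1-Bb each varied with Cd74 from rat to rat. Levels were taken as deviations from the group mean over the 36 rats, and r was tested by permuting rats within groups. RT1-Da and Cd74 had r = 0.965 (rho = 0.959), the closest relation of the 15 pairs, with a permutation p of 1e-05, the smallest that was possible, and 7.5e-05 after Benjamini-Hochberg adjustment over the 15 pairs. It was 0.957 without the 2 rats farthest from the median of RT1-Da, 0.976 and 0.952 within the 2 scan days, and between 0.87 and 0.993 within the 5 slides. Without the 3 arrays with high Rag1 it was 0.948 over the remaining 33 rats.

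RT1-Bb followed Cd74 with r = 0.84 (rho = 0.801, adjusted permutation p = 7.5e-05) and 0.753 without the 3 arrays. Within the 2 scan days it was 0.848 and 0.799. By its other probe, RT1-Bb had r = 0.135 with Cd74 (adjusted permutation p = 0.517), and this probe was the one not well above background in 3 rats. RT1-Db1 followed Cd74 with r = 0.75 (rho = 0.759, adjusted permutation p = 7.5e-05), with 0.614 without the 3 arrays and with 0.95 by its other probe. Within the slides r was between 0.201 and 0.963. RT1-Da and RT1-Db1, the partner chains, had r = 0.833 (rho = 0.827) and 0.743 without the 3 arrays. Between the beta chains RT1-Bb and RT1-Db1 r was 0.394, and 0.0851 without the 3 arrays.

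The relation of Ciita to the genes it regulates rested on the 3 arrays. With Cd74 r was 0.607 (rho = 0.481, adjusted permutation p = 0.00969), 0.476 without the 2 rats farthest from the median and 0.254 without the 3 arrays with high Rag1 (adjusted permutation p = 0.572). Within the slides it ran from 0.00112 to 0.994. With RT1-Da it was 0.645 and 0.232 without the 3 arrays. Of the 15 pairs, 11 had an adjusted permutation p under 0.05, and 5 without the 3 arrays. The 11 include RT1-Ba with RT1-Bb at r = -0.432, which rests on a probe at background. The 5 that remained were RT1-Da, RT1-Bb and RT1-Db1 each with Cd74, and RT1-Da with RT1-Bb and with RT1-Db1.

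**Figure D5:**
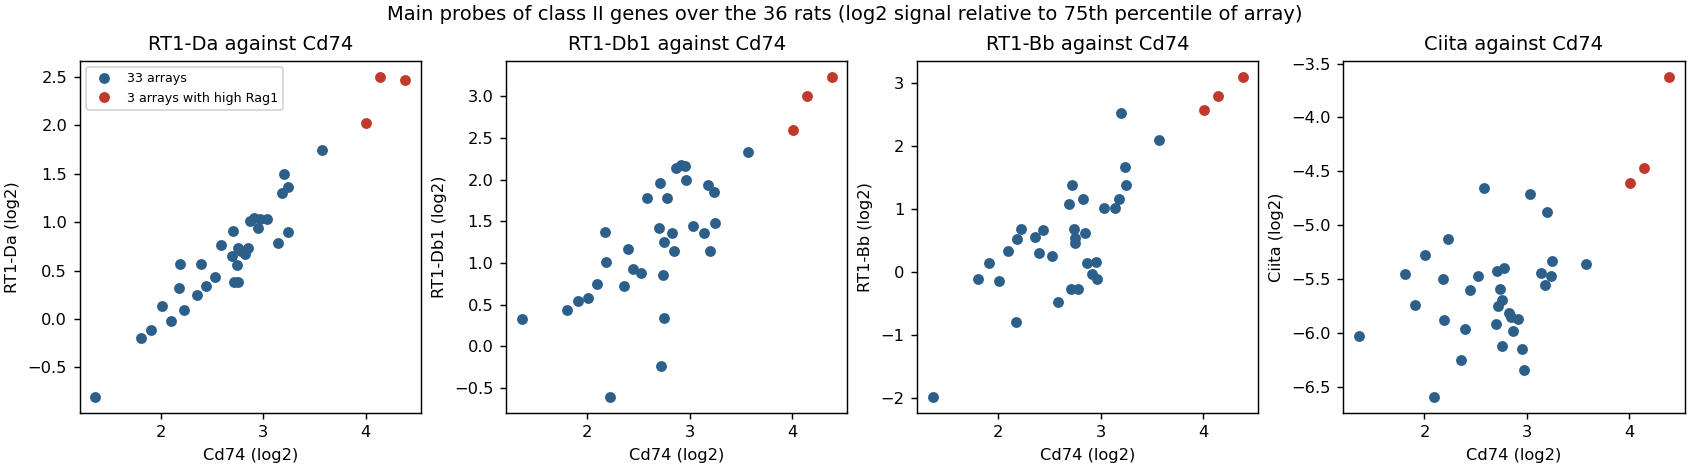
Level of RT1-Da, RT1-Db1, RT1-Bb and Ciita (vertical, log2) against Cd74 (horizontal, log2) in each of the 36 rats, not as deviations; red points are the 3 arrays with high Rag1. RT1-Da lies closest to a line, and the Ciita points spread more.

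Cd74 was then set against 16 genes of other pathway roles and cell types, as 19 relations, since genes whose rats fell into clusters were taken within each cluster of at least 6 rats. Of the 19, 2 had an adjusted permutation p under 0.05. Psmb8 had r = 0.733 (rho = 0.704, adjusted permutation p = 0.00304), and Ctss, the cathepsin that trims the invariant chain, had r = 0.56 (rho = 0.545, adjusted permutation p = 0.0117). Without the 2 rats farthest from the median of Cd74 they were 0.709 and 0.524, and within the 2 scan days 0.847 and 0.566 for Psmb8 and 0.393 and 0.607 for Ctss. Within the 5 slides r of Psmb8 was -0.798 on slide 3 and between 0.623 and 0.964 on the others, and r of Ctss was between 0.125 and 0.837. Without the 3 arrays they were 0.495 and 0.531, and 0 of the 19 relations had an adjusted p under 0.05. The interferon-responsive factor Irf1 had r = 0.515 (adjusted permutation p = 0.0644), and by rank it had rho = 0.52 (adjusted permutation p = 0.0409). Its r was 0.327 without the 3 arrays. Ifng itself was well above background on 1 of 36 arrays.

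Macrophage genes Cd163 and Csf1r had r of 0.44 and 0.15 with Cd74, and 0.51 and 0.429 without the 3 arrays (adjusted permutation p = 0.0929 and 0.107). Cd3e separated the 3 arrays from the rest by a gap, so r is given within the other 33 rats, where it was -0.307 (adjusted permutation p = 0.365). Tg had r of -0.262 among the 15 rats with low and 0.11 among the 21 rats with high values. Without the 2 rats farthest from the median of Cd74 these were 0.412 and 0.421, so that the sign of the first rests on those rats. Without the 3 arrays r was 0.655 among the 18 rats that remained with high Tg (adjusted permutation p = 0.107). Pax8, a transcription factor of follicular cells, had r of 0.329 among 18 rats with low and -0.637 among 18 with high values (adjusted permutation p = 0.551 and 0.0644), and of 0.106 and -0.393 without the 3 arrays. Pth had r of 0.265 and 0.0784 in its 2 clusters of 18 rats, or -0.0656 and 0.112 without the 2 farthest rats, Adipoq 0.14, Krt5 -0.0955, Foxn1 -0.116 and Acta1 0.0431 over 35 rats.

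The rest of the pathway was described by lists. Of 10 other class II and peptide loading genes 8 had a probe, and 0 were called in any comparison. At an unadjusted p under 0.05, RT1-DMb, part of the peptide exchange factor, was lower after 340 kBq (-0.64, SE 0.31) and after 4700 kBq (-0.67, SE 0.31), and Ctss was lower after 4700 kBq (-0.88, SE 0.42). These ratios were -0.57, -0.60 and -0.71 without the 3 arrays, none at that limit, and RT1-DOa was higher at that limit after 9 kBq (1.27) and 340 kBq (1.09), as were 2.9% and 6.97% of all probes. The median ratio of the list was -0.49 after 340 kBq and -0.06 after 4700 kBq, against 0.25 and 0.09 over all probes. RT1-DMa, the partner of RT1-DMb, had ratios of -0.38 and 0.01 in these comparisons, and the RT1-DO chains RT1-DOa and RT1-DOb, which restrain that factor, had 0.63 and -0.93 after 340 kBq and -0.87 and -0.12 after 4700 kBq. The endosomal enzymes Ctsl and Ifi30 had ratios of -0.64 and -0.61 after 340 kBq and of 0.01 and 0.02 after 4700 kBq, and Lgmn stayed between -0.14 and 0.43 in all 8 comparisons.

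Of the 7 genes for class II transcription (Rfx5, Rfxap, Rfxank, Nfya, Nfyb, Nfyc and Creb1) 0 were called. Creb1, which binds next to the X box, was higher after 9 kBq at an unadjusted p under 0.05 (0.43, SE 0.15), and the medians of the list lay between -0.11 and 0.03. Rfx5, a subunit of the complex on the X box, had ratios between -0.40 and 0.13, and between -0.53 and 0.175 without the 3 arrays. Of the 11 genes of interferon gamma signalling 0 were called and 0 had an unadjusted p under 0.05. The receptor chain Ifngr1 had ratios between -0.19 and 0.03, Irf1 between -0.42 and 0.02 and the chemokine Cxcl10 between -1.38 and 0.73. Without the 3 arrays with high Rag1 these ranges were -0.18 to 0.03, -0.69 to 0.17 and -1.50 to 1.08. For class I presentation 0 of 7 genes with a probe were called and 0 had an unadjusted p under 0.05, with list medians between -0.83 and -0.02. Without the 3 arrays with high Rag1 these medians ran from -0.96 after 9 kBq to 0.18 after 4700 kBq. The 7 genes were B2m, Tap1, Tap2, Tapbp, Psmb8, Psmb9 and Psmb10. Psmb8 had ratios between -1.29 after 170 kBq and -0.05 after 88 kBq, which were -0.65 and -0.20 without the 3 arrays. Those are not its ends without the 3 arrays, where its 4700 kBq mean lay above the controls. The 4700 kBq rats were at 0.46, 0.15, -0.47 and 0.51. The remaining 9 kBq rats were at -0.46, -1.18 and -1.55, and the remaining controls at 0.50, -0.90 and 0.34. Of 5 genes for co-stimulation and surface turnover 0 were called, namely Cd80, Cd86, Cd40, Cd83 and Marchf1. Cd80, a ligand of CD28 on T cells, was higher after 340 kBq at an unadjusted p under 0.05, but its probe was well above background on 7 of 36 arrays. Cd83 had ratios between -1.28 after 340 kBq and 0.13 after 88 kBq, which were -0.58 and 0.0091 without the 3 arrays. After 9 kBq, in contrast, Cd83 lay farther below the controls without the 3 arrays than with them. The remaining 9 kBq rats were at -1.73, -1.43 and -1.79, against -0.37, -1.03 and 0.64 in the remaining controls.

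Among the cell type lists 0 genes of 6 for dendritic cells, 9 for macrophages and monocytes, 6 for B cells and 8 for T cells were called in any comparison. Zbtb46 of the dendritic cells and Fcer2 of the B cells were higher after 340 kBq at an unadjusted p under 0.05, and Cr2 of the B cells after 88 kBq, with probes well above background on 21, 8 and 14 of 36 arrays. Rat 4 of the 340 kBq group, with its 90.7% of probes above background, had the highest dendritic, B cell, T cell and co-stimulation list means of the 33 rats without high Rag1. The T cell list had median ratios of -1.99 after 170 kBq and -1.55 after 4700 kBq, which were -0.21 and 0.11 without the 3 arrays.

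By the median r over RT1-Ba, RT1-Bb, RT1-Da, RT1-Db1 and Cd74 across the 36 rats, the 10 genes most like the class II genes, out of 9400 genes with a probe well above background on all arrays, were Ly86, Hcst, Neurl3, Laptm5, Cd7, Vcam1, Coro1a, Fermt3, Cd53 and Arpc1b. The median r ran from 0.845 for Ly86, a partner of an innate receptor of B cells and myeloid cells, to 0.729 for Arpc1b, a subunit of the actin-branching complex. With Cd74, Neurl3 had r = 0.858 and Ly86 0.845. RT1-Ba, whose probe was at background, had r between -0.406 and -0.146 with the 10 genes and shifts these medians. Ciita was not used in the ranking. These r are a description, since the genes were ranked by them, and they share the arrays and the 3 rats with high Rag1.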

How the data were processed

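Per the file headers, the scanner output deposited by the authors holds, for each spot, a processed intensity from which Agilent Feature Extraction 10.7.3.1 had subtracted background; the submitters' processing notes name Partek. The deposited matrix holds quantile normalized intensities and served as an alternative. Control and outlier spots were left out, the spots of a probe were averaged, and each array's 75th percentile over probes (1128 to 2971 in linear units) was subtracted on the log2 scale. No spot was saturated, and 99 probes without a value on some array were fitted on the rest. The number of arrays limits the precision.

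Accessions were matched to symbols through the RefSeq table (assembly GRCr8), which gave 17998 probes 1 symbol and 12369 none. The main probe of a gene is that with the highest mean over the 36 arrays. Groups were taken from the sample labels. The limma p-values and SEs of the group comparisons rest on the spread between rats within groups, pooled over the 9 groups of 4 rats. All 36 arrays entered 1 limma fit with a coefficient for each group (R 4.3.3, limma 3.58.1), and Benjamini-Hochberg adjustment ran over all 30367 probes. The fit was tested on simulated data. Relations were tested with 100000 permutations within groups (numpy 2.4.6, scipy 1.17.1, pandas 2.3.3, Python 3.11.15), and figures drawn with matplotlib 3.10.9. The planned relations to Itgax had no probe.

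Alternatives were quantile normalization, median centring, normexp (offset 50, on median signals), the deposited matrix, a filter on dim probes, slide, scan day or rat number as a term, trend and robust options, array weights, each rat left out, only the groups compared, and other thresholds. Members, lists and tests were chosen with earlier results of these data known, and the 3 arrays left out and the word CTGATTGG after the values or sequences had been seen. All member probes, all genes of the lists, and the 10 genes most alike were to be named; list genes without a probe were RT1-Db2, RT1-Hb, Nlrc5, Itgax, Flt3, Ms4a1, Cd79a, Psmb11, Ptcra, Plin1, Mylpf and Dnah5. Other lists held genes of C cells, parathyroid, adipose tissue, muscle, squamous and airway epithelium and endothelium, of which 0 were called. The authors' qPCR and plasma hormones were not analysed here. Single values of some genes of the lists are not reported here.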

Additional observations from a re-analysis of the deposited data

Results flagged for a closer look

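Within groups of 4 rats, 9 values of member probes stood far from the other 3 rats, out of 72 groups of rats and probes tested, where chance gives about 1 in 20. The 72 are not independent, since the probes share the rats and the members vary together over rats. The count therefore cannot show an excess over chance. Rat 2 of 9 kBq was high for Ciita (-3.63, next rat -5.44), for RT1-Bb by A_44_P552452 (2.59, next 0.52) and for RT1-Db1 by A_64_P130578 (3.15, next 1.32). Control rat 2 was high for Cd74 (4.14, next 2.97) and for Ciita (-4.47, next -6.12). Both rats are among the 3 with high Rag1. RT1-Bb by A_44_P552452 was low in rat 4 of 170 kBq (-8.14, next -0.26) and in rat 3 of 340 kBq (-6.63, next 0.10), where the other probe gave 1.38 and 0.69. Rat 2 of 260 kBq was high for RT1-Bb by A_64_P043911 (2.09, next 0.33), and rat 3 of 170 kBq was low for Cd74 (1.81, next 2.70). The causes were not tested.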

How the results depend on the processing

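The number of called member probes was 0 in the 8 comparisons, the F test and the slope under every alternative run and with each rat left out; the smallest adjusted p of any of the 40 ratios was 0.125. Over all probes array weights called 371 after 9 kBq and 25 after 4700 kBq, and quantile normalization 4, 4, 3 and 4 after 9, 88, 170 and 260 kBq. Direction was less stable. Of 480 ratios under alternatives other than leaving out a rat, 32 changed sign, in 17 of the 40 ratios. Leaving out the 3 arrays with high Rag1 gave Ciita 0.29 after 260 and 0.28 after 4700 kBq, RT1-Bb 0.35, 0.51, 0.15 and 0.066 after 170, 260, 340 and 760 kBq, RT1-Da 0.0501, 0.066 and 0.16 after 88, 760 and 1300 kBq, and RT1-Db1 0.16 after 760 kBq. Array weights gave RT1-Bb -0.035 after 9 kBq and RT1-Da 0.11 after 1300 kBq. Cd74 after 9 kBq was 0.055 with quantile normalization, 0.056 with the deposited matrix, 0.0603 with normexp, 0.0203 with the slide block and 0.12 with scan day as a term. Ciita after 170 kBq was -0.086, -0.094 and -0.062, and after 340 kBq -0.41, -0.38 and -0.12, with quantile normalization, the deposited matrix and normexp, and normexp gave -0.042 after 760 kBq. After 88 kBq the slide block and the scan day term gave Cd74 0.27 and 0.29, RT1-Da 0.37 and 0.33, and RT1-Db1 0.18 and 0.053. RT1-Bb was 0.15 after 340 kBq with the slide block and 0.29 after 260 kBq with the scan day term. The causes were not tested.

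With single rats left out, 19 ratios changed sign. The ranges were, for Cd74, -0.40 to 0.31 after 9 and -0.38 to 0.23 after 88 kBq. For Ciita they were -0.052 to 0.57 after 170, -0.34 to 0.29 after 260, -0.11 to 0.51 after 760 and -0.34 to 0.28 after 4700 kBq. For RT1-Bb they were -0.18 to 1.09 after 9, -0.62 to 0.35 after 170, -0.62 to 0.51 after 260, -0.82 to 0.15 after 340, -0.90 to 0.066 after 760 and -0.48 to 0.72 after 1300 kBq. For RT1-Da they were -0.62 to 0.28 after 9, -0.38 to 0.35 after 88, -0.64 to 0.066 after 760 and -0.55 to 0.16 after 1300 kBq. For RT1-Db1 they were -0.84 to 0.081 after 9, -0.75 to 0.14 after 88 and -0.73 to 0.16 after 760 kBq.

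The rat numbers of the labels did not pair the rats, whose deviations correlated on average with r = -0.02 for the same number and 0.0068 for other numbers, and 8 of 36 arrays correlated best with their own number. With the replicate block Cd74 and RT1-Da after 4700 kBq were -0.96 and -1.10, and no call changed.

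The number of member pairs with an adjusted p under 0.05 went from 11 to 5 without the 3 arrays and to 6 with the other probes of RT1-Bb and RT1-Db1. For Cd74 with other genes it went from 2 to 5 with quantile normalization, 4 with normexp, 4 with the deposited matrix, 6 with values not as deviations and 0 without the 3 arrays. Sign changes of r were RT1-Ba with RT1-Bb (0.148 by the other probe), with RT1-Db1 (0.0253 with quantile normalization, 0.00861 with the deposited matrix and 0.126 without the 3 arrays) and with Ciita (0.0294 with deviations from group and slide, 0.378 without the 3 arrays), and Cd74 with Ifng (-0.233) and the upper Pth cluster (-0.125) without the 3 arrays, with the upper Tg cluster (-0.00189, deposited matrix), and with Acta1 (-0.0509) and Krt5 (0.0672) as values not as deviations. Without the 2 rats farthest from the median, Cd74 turned with the lower Tg cluster (0.412) and the lower Pth cluster (-0.0656). Slide terms were not run within clusters, which hold too few rats. Signal over background limits RT1-Ba and Ciita.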
